A study of Mus musculus with 8 samples.

Results

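Small nucleolar RNAs (snoRNAs) and the genes that host them were followed in EO771 cells, a mouse breast cancer line. Members were chosen by name and by mean count: genes whose symbols begin with Snord or Snora and a number (snoRNAs), and Gas5, Zfas1 and genes named Snhg with a number (hosts), with a mean of at least 2 counts over the 8 libraries. Of 49997 genes in the count table, 152 had such a name and 9 passed the minimum: the 7 hosts Snhg14, Zfas1, Gas5, Snhg20, Snhg17, Snhg1 and Snhg8, and the 2 snoRNAs Snord4a and Snord96a. Since the mean count selected the members, their levels are given as a description.

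Total RNA was sequenced from 2 experiments with 2 libraries per group. Cells received vehicle (2% DMSO in saline) or 12-HETE, a lipid that 12-lipoxygenase makes from arachidonic acid, at 100 nM for 48 h, and other cells carried an empty vector or a vector that overexpresses ADAR1 p150, the interferon-inducible isoform of the adenosine deaminase that edits double-stranded RNA. All groups share the EO771 background, so a single line stands for each condition. For its RNA editing analysis of these cells the study describes the libraries of a group as independent experiments, and the labels add nothing on cultures. The p-values measure the spread between these libraries. The 12-HETE and ADAR1 p150 comparisons share no library.

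Most snoRNAs are cut from introns of a host transcript and work in the nucleolus with partner proteins (as snoRNPs). C/D box snoRNAs pair with fibrillarin and guide ribose methylation of ribosomal RNA, and H/ACA box snoRNAs pair with dyskerin and guide pseudouridylation. Their hosts fall into 2 kinds: coding genes, often for ribosomal or translation proteins, and non-coding genes such as Gas5 and the Snhg genes, whose spliced RNA carries little coding sequence. Many non-coding hosts start with a terminal oligopyrimidine (TOP) run of C and T, which ties their translation to growth signals, and their spliced RNA is then removed by nonsense-mediated decay. Host and snoRNA are thus made together but removed by different routes.

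The sequences of both snoRNA members are shown because they carry the boxes that define their class. In GENCODE M21 (GRCm38), both lie on chromosome 11, Snord4a at chr11:78181686-78181756 on the minus strand, 71 bases long, within Rpl23a, and Snord96a at chr11:48802032-48802112 on the plus strand, 81 bases long, within Rack1. Capitals mark the C box letters TGATGA, which begin at base 9 in both, and the D box letters CTGA, which begin at base 62 in Snord4a and at base 71 in Snord96a.
Snord4a: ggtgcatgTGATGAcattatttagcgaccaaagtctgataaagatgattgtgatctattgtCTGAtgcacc
Snord96a: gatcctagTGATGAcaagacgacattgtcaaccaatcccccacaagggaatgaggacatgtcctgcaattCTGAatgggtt
Of the 94 Snord names in the table, 91 had a sequence, and 62 of these (68.1%) held TGATGA within the first 20 bases and CTGA within the last 20 on the transcript strand. None of the 39 Snora sequences did. The Snord sequences had a median length of 86 bases and the Snora sequences of 132.

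The start regions of some hosts are shown because many non-coding hosts are described as starting with a TOP run. Each line gives 100 bases on the gene's strand with the RefSeq start (GRCm38.p6) at base 51, and capitals mark the longest run of C and T within the 20 bases before the start and the 20 bases from it, counted only inside that window. The regions are chr1:161035116-161035215 (plus, the second of 2 Gas5 starts), chr19:8723437-8723536 (Snhg1, plus), chr3:123508287-123508386 (Snhg8, minus), chr2:167062884-167062983 (Zfas1, plus) and chr7:60450128-60450227 (Snhg14, minus).
Gas5: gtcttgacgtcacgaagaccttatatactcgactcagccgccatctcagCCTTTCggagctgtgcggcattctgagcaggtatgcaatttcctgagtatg
Snhg1: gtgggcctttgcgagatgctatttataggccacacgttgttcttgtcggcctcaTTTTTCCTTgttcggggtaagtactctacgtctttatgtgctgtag
Snhg8: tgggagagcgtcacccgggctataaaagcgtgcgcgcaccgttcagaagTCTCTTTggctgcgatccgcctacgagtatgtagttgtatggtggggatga
Zfas1: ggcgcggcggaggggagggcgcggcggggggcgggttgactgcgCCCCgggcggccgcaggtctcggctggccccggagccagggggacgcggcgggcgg
Snhg14: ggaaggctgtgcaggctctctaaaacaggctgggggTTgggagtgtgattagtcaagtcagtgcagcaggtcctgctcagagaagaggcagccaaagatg
The run was 9 bases long in Snhg1, a length that 10.7% of 32851 promoters reached, and 7 bases in Snhg8, which 24.3% reached. In Gas5 it was 6 bases at the second start, as in 37.5% of promoters, and 3 bases at the first. Zfas1 had a run of 4 bases and Snhg14 of 2, lengths that 78.6% and 99.4% of promoters reached. Not printed are Snhg17, with runs of 6 and 7 bases at its starts (37.5% and 24.3% of promoters), and Snhg20, with 5 bases (57.5%). The Snhg1 run began 4 bases after the annotated start. A run in these windows is a description of the sequence and not a measured start of transcription.

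Depth was low. Libraries held between 1101767 and 1537037 counts, of which the single gene AY036118 took 44.4% to 50.3%, and 3 counts corresponded to 1.95 to 2.72 CPM, which is the count scaled to the library total. Adar had 181 and 140 counts in the ADAR1 p150 libraries against 2 and 8 in vector, and its log2 fold change was 4.68. The epithelial markers Krt8, Krt18, Krt7, Epcam and Cdh1 summed to 159 to 308 counts per library with Cdh1 at 0, 5 mesenchymal markers to 31 to 74, 4 leukocyte markers to 8 to 22 with Cd3e at 0, and 3 endothelial markers to 1 to 11. Summed and normalized, the endothelial markers were at 6.64 to 8.56 CPM in vehicle and 0.766 to 2.14 in 12-HETE, a difference that lay in Cdh5, with 9 and 7 counts in vehicle and 0 and 0 in 12-HETE, while Pecam1 and Kdr had at most 2 counts in these libraries. The same sum was at 5.48 to 7.86 CPM in vector and 1.41 to 8.32 with ADAR1 p150, which overlapped. The mesenchymal markers, with Col1a2 at 0, were at 26.5 to 38.2 in vehicle and 42.1 to 52.8 in 12-HETE. They were at 30.6 to 31.0 in vector and 36.3 to 42.9 with ADAR1 p150. Most of these counts were Vim, whose log2 fold changes of 0.50 and 0.44 did not pass in edgeR (adjusted p = 0.128 and 0.226). Col1a1, Col3a1 and Pdgfra had at most 5 counts in a library. Of the epithelial markers, Krt18 passed lower in both experiments, at -0.61 and -0.88 (adjusted p = 0.0121 and 0.00198 in edgeR). Krt8 passed higher with ADAR1 p150 alone (0.59, adjusted p = 0.0314), and Krt7 passed in neither. Several markers thus move with the comparisons below, and their part in the results was not tested.

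The snoRNA genes had few counts, and the table does not tell a mature snoRNA from the host intron that holds it. Of the 133 snoRNA names, 91 had 0 counts in every library, which 3 counts per library bound at no more than 2.72 CPM each, and 40 of the other 42 were under the minimum. All 133 names together gave 12 and 20 counts in the vehicle libraries, 17 and 19 in 12-HETE, 9 and 9 in vector, and 18 and 18 in the ADAR1 p150 libraries. The 31 Snord names with a count made up 97 of the 122 counts and the 11 Snora names 25. With TMM factors, which scale library sizes by the bulk of genes, the sum was 7.86 and 8.22 CPM in the vector libraries and 12.7 and 13.6 CPM in the ADAR1 p150 libraries, without overlap, while vehicle (10.3 and 16.6 CPM) spanned both 12-HETE libraries (12.1 and 14.6 CPM). The size selection of the libraries was not given in the sources used here, and its part was not tested.

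Among hosts, 17 of 19 names had a count and 10 of these stayed under the minimum. Just inside the minimum were Snord96a, with a mean of 2.125 counts, and Snord4a with 2.75, and just outside were Snhg15 with 1.75, Snhg7 with 1.5 and Snord42a with 1.125. Snord96a met the minimum through the ADAR1 p150 libraries, which held 4 and 5 of its 17 counts, so that its ADAR1 p150 values are a description with no test. Only Snhg14, Zfas1 and Gas5 reached the mean of 10 counts that the study's own filter asks for. The other 4 hosts and both snoRNAs are described from a fit of the 13707 genes with a mean of at least 2.

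Per kilobase of GENCODE exon, the median normalized level over the 8 libraries was 6.57 CPM per kb for Snhg14, 4.76 for Zfas1, 2.79 for Snhg8, 2.602 for Gas5, 1.27 for Snhg20, 0.903 for Snhg1 and 0.431 for Snhg17. Neighbours in this order overlapped in range: Snhg14 ran from 4.67 to 8.31 CPM per kb over libraries, Zfas1 from 1.03 to 11.9, Snhg8 from 0 to 7.78 and Gas5 from 0.804 to 4.19. The short snoRNAs stood higher on this scale, at 29.9 CPM per kb for Snord4a and 18.3 for Snord96a, from no more than 5 counts in any library.

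**Figure D1:**
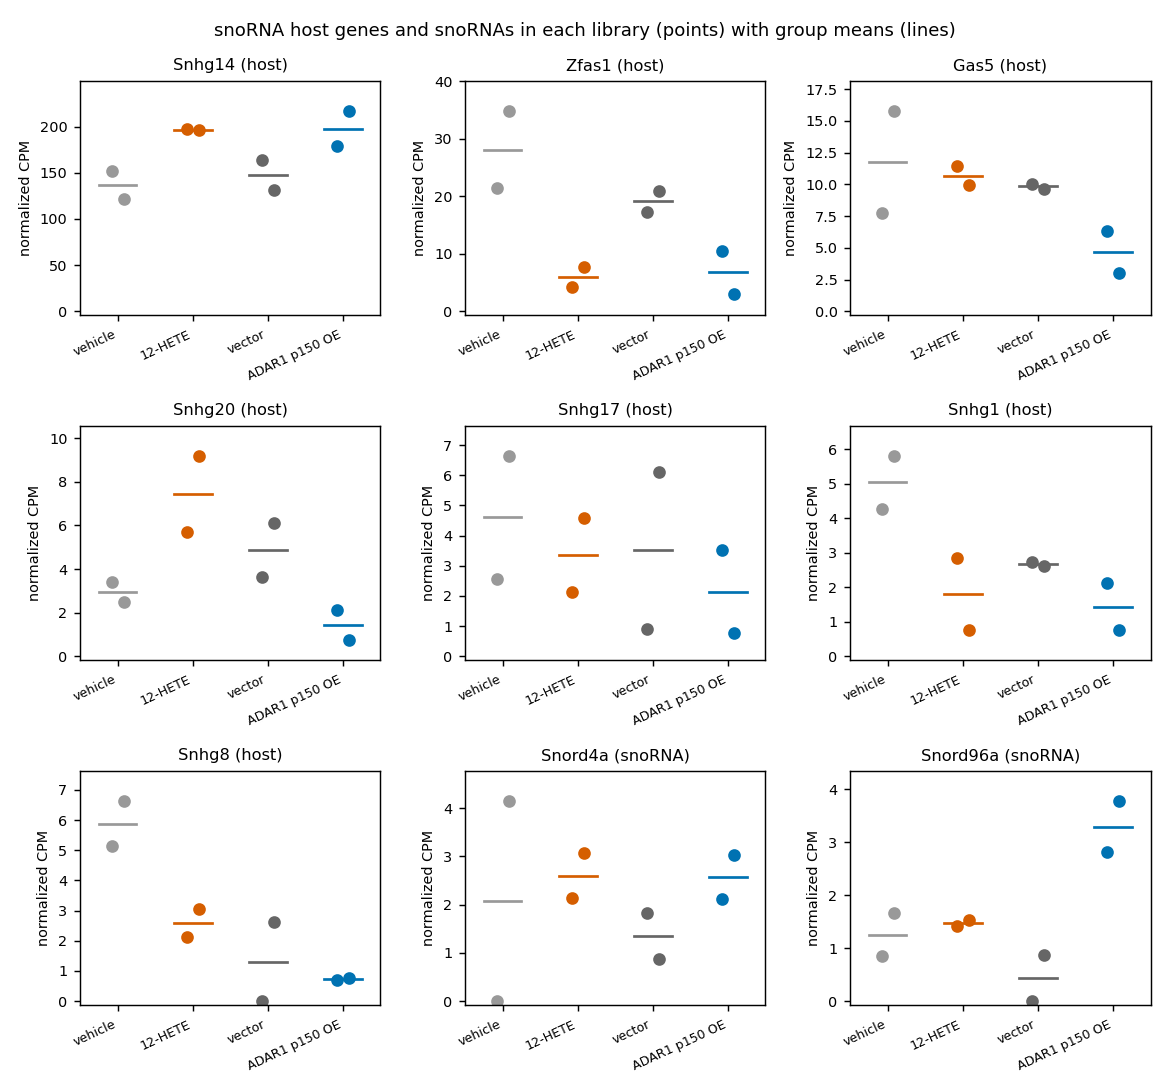
Normalized CPM (vertical axis) of the 7 hosts and 2 snoRNAs in each library (points), with lines at the mean of the 2 libraries of a group. Zfas1 lay between 3.02 and 10.6 CPM in the 4 treated libraries and between 17.3 and 34.8 in the 4 controls, whereas Snhg14 was at 178.7 CPM or more in treated and at 164.3 or less in control libraries.

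Zfas1 fell in both experiments and was the 1 member called in each. It is a non-coding gene on chromosome 2 (chr2:167062934-167065862, plus strand) that starts head to head with Znfx1 and hosts C/D box snoRNAs of the Snord12 family, and it is known from mammary gland development. Its counts were 25 and 42 in vehicle and 6 and 10 in 12-HETE, then 19 and 24 in vector and 15 and 4 in the ADAR1 p150 libraries. Every treated library was below every control library in normalized CPM. The group means fell from 28.1 ± 9.50 to 5.97 ± 2.39 CPM with 12-HETE, and from 19.2 ± 2.56 to 6.79 ± 5.32 CPM with ADAR1 p150 (SD, n = 2).

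In the quasi-likelihood test of edgeR over 6901 genes, Zfas1 fell by 2.23 on the log2 scale with 12-HETE (SE 0.42, adjusted p = 8.7e-05) and by 1.46 with ADAR1 p150 (SE 0.44, adjusted p = 0.0125). A gene was called where its adjusted p was below 0.05 and it changed at least 2-fold, which held for 14.4% of all genes tested with 12-HETE and for 12.8% with ADAR1 p150, or for 8.25% and 4.69% in the lower direction. Zfas1 was the 1 host called of the 3 tested in each experiment. The difference between its 2 effects was -0.77 (SE 0.65, adjusted p = 0.478 from edgeR), and vector against vehicle stood at -0.55 (adjusted p = 0.553).

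The ADAR1 p150 call rested on few counts. Without the second ADAR1 p150 library, which had 4 counts, the log2 fold change of Zfas1 was -0.86 (adjusted p = 0.200 from edgeR), without the first it was -2.63, and without the second vector library it was -1.32 (adjusted p = 0.0818). With DESeq2 the adjusted p was 0.0868. With 12-HETE the call held when any library was left out, between -2.69 and -1.87. As in any bulk sample, less RNA in each cell and fewer cells with the RNA cannot be told apart. The 3 snoRNA genes that RefSeq places inside Zfas1 had 6 counts in all, and Snord12 had 1.

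Snhg14 moved up by less than 2-fold in both experiments. It is a very long imprinted non-coding gene on chromosome 7 (chr7:59272737-60450177, minus strand) whose introns hold the Snord115 and Snord116 clusters and whose far end runs antisense to Ube3a, a ubiquitin ligase gene. Counts were 178 and 147 in vehicle, 277 and 256 in 12-HETE, 180 and 151 in vector, and 254 and 287 in the ADAR1 p150 libraries, and both treated groups lay above their controls without overlap after normalization. The log2 fold change was 0.52 with 12-HETE (SE 0.14, adjusted p = 0.00373) and 0.42 with ADAR1 p150 (SE 0.14, adjusted p = 0.0229) in edgeR. An adjusted p under 0.05 alone was met by 29.3% of genes with 12-HETE and by 25.6% with ADAR1 p150, so Snhg14 shared this with a large part of the genes tested. Without the second vehicle library the 12-HETE value was 0.30 (adjusted p = 0.251), and with ADAR1 p150 it was 0.27 without the second vector library (adjusted p = 0.302) and 0.27 without the second ADAR1 p150 library (adjusted p = 0.251). With DESeq2 neither passed (adjusted p = 0.0717 and 0.267). The ADAR1 p150 value also did not pass with RLE factors (0.36, adjusted p = 0.0662), without AY036118 (adjusted p = 0.0573) with only the 4 libraries of the experiment (adjusted p = 0.0642), with a minimum mean of 2 (adjusted p = 0.160) or with no minimum (adjusted p = 0.275), and it was positive in every setting run.

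Other RNAs of the Snhg14 unit were at 0. RefSeq places 206 snoRNA genes inside Snhg14, and all had 0 counts in every library, as did Snrpn, Snurf and Ipw, which lie on the same strand within it. Ube3a, on the opposite strand, had 10 and 12 counts in the vehicle libraries, 27 and 27 in 12-HETE, 6 and 15 in vector, and 23 and 15 in the ADAR1 p150 libraries. It rose with 12-HETE by a log2 fold change of 1.10 (SE 0.39, adjusted p = 0.0300 from edgeR) and stood at 0.56 with ADAR1 p150 (adjusted p = 0.358). The 12-HETE call was lost without any 1 of the 4 libraries (adjusted p = 0.155 and 0.102 without the first and second vehicle library, and 0.0823 and 0.118 without the first and second 12-HETE library) and with DESeq2 (adjusted p = 0.252), and with no minimum count (adjusted p = 0.0850). The exons of the 2 genes overlap by 1803 bases, and each library had 9.48 to 30.00 counts of Snhg14 for each count of Ube3a. The strand setting of the counting was not given in the sources used here, so reads of Snhg14 and of Ube3a cannot be told apart. These neighbours, and those of Gas5 and Zfas1, were chosen after their values were seen.

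That limit touches other genes too. Where a long non-coding gene and a protein-coding gene had opposite-strand exons overlapping by at least 200 bases, members left out, and the larger mean count was at least 10, the non-coding gene held the higher mean in 302 of 371 overlaps (81.4%).

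Gas5, growth arrest-specific transcript 5, is a TOP host whose spliced RNA accumulates when growth stops and which carries several C/D box snoRNAs in its introns (chr1:161034601-161038539, plus strand). Its counts were 9 and 19 in vehicle and 16 and 13 in 12-HETE, so the 12-HETE libraries lay within the vehicle range (log2 fold change -0.14, SE 0.42, adjusted p = 0.847 from edgeR). Counts were 11 and 11 in vector and 9 and 4 in the ADAR1 p150 libraries, lower without overlap after normalization, at -1.04 (SE 0.52, adjusted p = 0.144 from edgeR). The test thus did not pass in either experiment. Leaving out the second vehicle library turned the 12-HETE value to 0.40. Of the 8 snoRNA genes within Gas5, 4 had a count, 13 counts in all.

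Zbtb37 overlaps Gas5 on the opposite strand in RefSeq. It had 9 to 25 counts, and its log2 fold changes were -0.28 and 0.38 in edgeR (adjusted p = 0.660 and 0.540).

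Znfx1 shares 82 exon bases with Zfas1. It had 41 and 44 counts in the vehicle libraries, 36 and 40 in 12-HETE, 34 and 34 in vector, and 39 and 27 in the ADAR1 p150 libraries. Its log2 fold changes were -0.35 (SE 0.25, adjusted p = 0.312) and -0.34 (SE 0.27, adjusted p = 0.389) in edgeR, beside -2.23 and -1.46 for Zfas1.

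**Figure D2:**
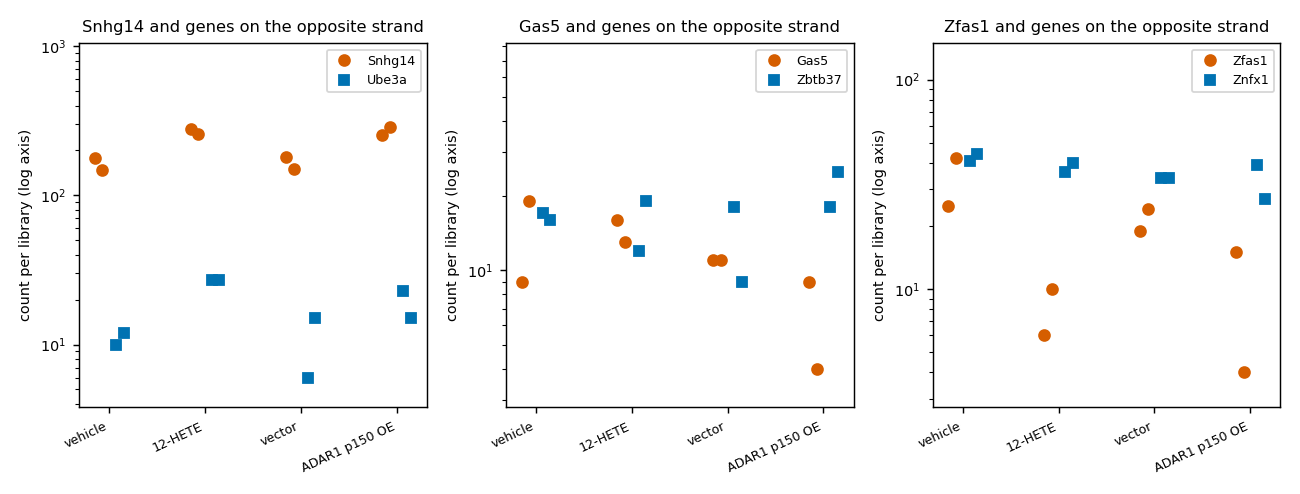
Counts per library (vertical log axis) of Snhg14, Gas5 and Zfas1 (circles) and of the genes on their opposite strands (squares), by group. Ube3a stays at 27 counts or fewer while Snhg14 reaches 287, Zbtb37 lies between 9 and 25 counts beside Gas5 at 4 to 19, and Znfx1 stays between 27 and 44 while Zfas1 ranges from 4 to 42.

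The 4 low hosts had at most 12 counts in a library. Snhg20 (chr11:117076783-117078955, plus strand) had 4 and 3 counts in vehicle and 8 and 12 in 12-HETE, then 4 and 7 in vector and 3 and 1 in the ADAR1 p150 libraries. It was thus higher than its controls with 12-HETE and lower with ADAR1 p150, without overlap in either. Its log2 fold changes, 1.30 (SE 0.63, adjusted p = 0.165) and -1.78 (SE 0.80, adjusted p = 0.139), did not pass in edgeR. The difference between them was 3.08 (SE 1.02, adjusted p = 0.0488 from edgeR). It passed by a narrow margin, with an adjusted p of 0.0507 with RLE factors and of up to 0.244 when a library was left out, the highest without the second vector library.

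Snhg1, the host of Snord22 and its neighbours (chr19:8723487-8726326, plus strand), had 5 and 7 counts in the vehicle libraries, 4 and 1 in 12-HETE, 3 and 3 in vector, and 3 and 1 in the ADAR1 p150 libraries. Treated libraries were below controls in both experiments after normalization, yet the log2 fold changes of -1.40 (SE 0.77) and -0.93 (SE 0.95) had adjusted p-values of 0.240 and 0.606 in edgeR. Its 8 internal snoRNA genes gave 10 counts. Snhg8, the host of Snora24 (chr3:123507552-123508336, minus strand), had 6 and 8 counts in vehicle and 3 and 4 in 12-HETE, and 0 and 3 in vector against 1 and 1 in the ADAR1 p150 libraries. The 12-HETE libraries were lower without overlap (log2 fold change -1.16, SE 0.70, adjusted p = 0.299 from edgeR), and the ADAR1 p150 libraries lay within the vector range (-0.88, SE 1.28, adjusted p = 0.735). Snora24 itself was at 0 throughout.

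Snhg17 (chr2:158353700-158361522, minus strand) varied between replicates as much as between groups, with 3 and 8 counts in the vehicle libraries, 3 and 6 in 12-HETE, 1 and 7 in vector, and 5 and 1 in the ADAR1 p150 libraries. Its log2 fold changes were -0.46 (SE 0.71) and -0.77 (SE 0.84), with adjusted p-values of 0.740 and 0.625 in edgeR.

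Snord4a had 0 and 5 counts in the vehicle libraries, 3 and 4 in 12-HETE, 2 and 1 in vector, and 3 and 4 in the ADAR1 p150 libraries. The log2 fold changes were 0.29 (SE 0.91, adjusted p = 0.891) and 0.79 (SE 1.03, adjusted p = 0.708) in edgeR. Its host Rpl23a, which encodes a protein of the large ribosomal subunit, had 25 to 43 counts, at 0.01 (SE 0.28, adjusted p = 0.990) and -0.29 (SE 0.30, adjusted p = 0.526). Tlcd1, opposite, overlaps both Rpl23a and all 71 bases of Snord4a in GENCODE M21 and had 816 to 1145 counts. Since the strand setting was not given, reads of Snord4a and Rpl23a cannot be told from those of Tlcd1 where they overlap.

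Snord96a had 1 and 2 counts in the vehicle libraries, 2 and 2 in 12-HETE, 0 and 1 in vector, and 4 and 5 in the ADAR1 p150 libraries. The ADAR1 p150 libraries held the highest counts, and it was through them that Snord96a met the minimum. With 12-HETE the log2 fold change was 0.21 (SE 1.13, adjusted p = 0.937 from edgeR). Its host Rack1, which encodes a scaffold protein of the small ribosomal subunit, had 66 and 81 counts in the vehicle libraries, 77 and 50 in 12-HETE, 43 and 42 in vector, and 59 and 30 in the ADAR1 p150 libraries. Rack1 stood at -0.40 (SE 0.22, adjusted p = 0.183) and -0.23 (SE 0.26, adjusted p = 0.575) in edgeR.

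**Figure D3:**
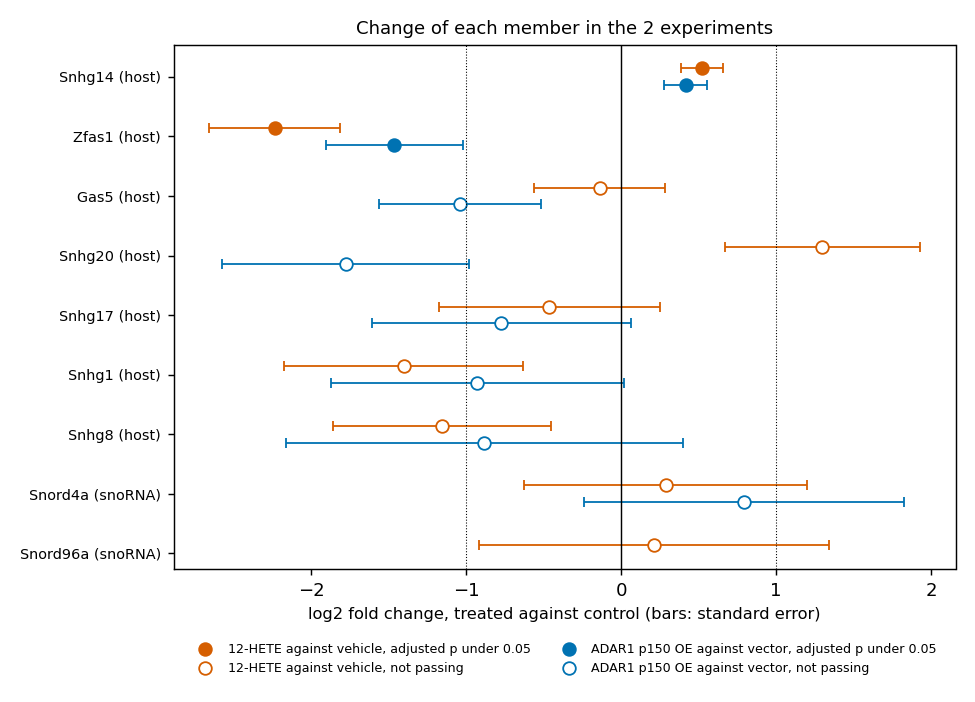
Log2 fold change (horizontal axis) of each host and snoRNA with 12-HETE against vehicle and with ADAR1 p150 against vector, with bars for the standard error, filled points for an adjusted p under 0.05 and dotted lines at a 2-fold change. Snhg14, Zfas1 and Gas5 come from the fit of 6901 genes and the rest from the fit of 13707 genes, Snord96a is drawn for 12-HETE alone, and only Zfas1 lies filled beyond a dotted line.

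As a class, hosts gave 1 call in each experiment. In the fit of 13707 genes, 5 of 7 hosts had a negative estimate with 12-HETE (median -0.46, against -0.02 over all genes) and 6 of 7 with ADAR1 p150 (median -0.93, against 0.02). Of the 3 hosts in the fit of 6901 genes, the medians were -0.14 and -1.04, beside 0.00 and 0.07 over all genes. The 2 snoRNAs had a median of 0.25 with 12-HETE, where edgeR called 10.1% of the 13707 genes and 0 of the 2, with 0 at an unadjusted p under 0.05 and 0 by DESeq2. With ADAR1 p150, where 8.19% of the 13707 genes were called, no snoRNA median or count is read, since Snord96a entered through that group.

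Treated libraries outside the control range were common over the 13707 genes fitted, at 55.3% with 12-HETE and 53.2% with ADAR1 p150. With 12-HETE 2 of 7 hosts were higher and 3 lower in this sense and 0 of 2 snoRNAs were, and with ADAR1 p150 1 host was higher and 4 were lower. Most of the 13707 genes fitted met this measure, and so did 5 of 7 hosts in each experiment. Between the 2 effects, edgeR called 0 of the 3 members in the fit of 6901 genes (8.33% of all genes), with 0 at an unadjusted p under 0.05 and 0 with DESeq2, and Snhg20 alone of the 9 members in the fit of 13707 genes (4.38%). Between vector and vehicle it called 0 of 3, with 0 at an unadjusted p under 0.05 and 0 with DESeq2, where 0.0435% of genes were called.

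The sum over hosts hid these differences. All 7 hosts together took 187.0 to 221.0 CPM of each library, since Snhg14 outweighed the rest. Scaled by library totals, this sum was 200.9 and 194.8 CPM in vehicle and 206.2 and 197.3 in 12-HETE, which overlapped. On the same scale it was 189.9 and 187.0 CPM in vector and 206.1 and 221.0 with ADAR1 p150, higher without overlap. The TMM factors were 1.05 and 1.04 in vehicle and 0.939 and 0.876 in 12-HETE. With TMM factors, as used for single members, the sum was higher without overlap in both experiments, so the overlap with 12-HETE depends on the scale. Snhg14 was the only host with a positive estimate in both experiments. Without Snhg14, the other 6 hosts gave 52 and 87 counts in the vehicle libraries, 40 and 46 in 12-HETE, 38 and 55 in vector, and 36 and 12 in the ADAR1 p150 libraries. Scaled by library totals these sums were lower in the treated libraries, at 26.0 and 30.1 CPM in 12-HETE against 45.4 and 72.4 in vehicle, and at 25.6 and 8.87 CPM in the ADAR1 p150 libraries against 33.1 and 49.9 in vector. Both pairs of groups were apart, with Zfas1 as the largest part of the control sums.

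The name rule leaves out snoRNA genes under other names. RefSeq lists 1340 snoRNA genes in the table, of which 229 had a count, and their summed level was 265.4 and 252.2 CPM in vehicle, 201.9 and 227.4 in 12-HETE, 256.5 and 258.6 in vector, and 337.7 and 369.6 in the ADAR1 p150 libraries. The sum was lower with 12-HETE and higher with ADAR1 p150, without overlap. Of the 55 with a mean of at least 2 counts, edgeR called 0 higher and 2 lower with 12-HETE, and 1 higher and 0 lower with ADAR1 p150. Over all 13707 genes in that fit 10.1% and 8.19% were called in either direction. DESeq2 called 0 of the 55 in both, and 6 and 9 had an unadjusted p under 0.05 in edgeR. The 2 lower were Gm26440, with 17 and 12 counts against 7 and 4 with 12-HETE (log2 fold change -1.57, SE 0.51, adjusted p = 0.0221 from edgeR), and Gm25763, with 8 and 6 against 2 and 1 (-2.31, SE 0.80, adjusted p = 0.0362). The 1 higher was Gm22499, with 2 and 2 counts in the vehicle libraries, 0 and 0 in 12-HETE, 0 and 1 in vector, and 9 and 8 in the ADAR1 p150 libraries. It met the minimum through the ADAR1 p150 libraries and is given by its counts, with no test. All 3 are named by their place among the calls, and the median log2 fold changes of the 55 were -0.18 and 0.31. With ADAR1 p150, 21 of the 55 were above both vector libraries and 1 was below, whereas with 12-HETE 4 were above both vehicle libraries and 12 below. The shares outside the controls, in either direction, over all 13707 genes were 53.2% and 55.3%, and snoRNA genes that met the minimum through a single group are among the 55, so nothing is read from these counts or medians. This wider set, with the genes named from it, was chosen after seeing the data. Copies of a snoRNA family share sequence, and how reads that fit several copies were counted is not given in the sources used here.

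Proteins that make and use snoRNPs, and those that remove or regulate host RNAs, were followed as 5 lists of 38 genes, of which 20 had a mean of at least 10 counts. Of these, 1 was called higher with 12-HETE and 0 lower, and 2 were called higher and 1 lower with ADAR1 p150 in edgeR, beside 14.4% and 12.8% of all 6901 genes. DESeq2 called 1 with 12-HETE (Dkc1) and 0 with ADAR1 p150. The median log2 fold change over the 20 was 0.12 and -0.26, beside 0.00 and 0.07 over all genes tested.

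Dkc1 rose in both experiments. It encodes dyskerin, the pseudouridine synthase of H/ACA snoRNPs. Counts were 6 and 10 in vehicle, 34 and 27 in 12-HETE, 8 and 7 in vector, and 25 and 18 in the ADAR1 p150 libraries, higher without overlap in both. The log2 fold change was 1.73 with 12-HETE (SE 0.39, adjusted p = 0.000807) and 1.21 with ADAR1 p150 (SE 0.42, adjusted p = 0.0311) in edgeR. With 12-HETE the call held when any library was left out, whereas with ADAR1 p150 the adjusted p was 0.0935 and 0.170 without the first and second vector library, 0.167 without the first ADAR1 p150 library, 0.0765 with a minimum mean of 2, 0.141 with no minimum and 0.263 with DESeq2. Its partner Nhp2 did not pass, at 0.24 and 0.16 (adjusted p = 0.316 and 0.610), and Gar1 and Nop10 were under the minimum. Dkc1 shares 45 exon bases with Mpp1 on the opposite strand.

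None of the C/D box core proteins tested was called. Fbl (fibrillarin, the methyltransferase), Nop56 and Nop58 were tested and 0 of 3 was called in either experiment, with values of 0.19, 0.05 and 0.47 with 12-HETE and of 0.30, -0.77 and -0.46 with ADAR1 p150. All 6 adjusted p-values were 0.108 or more, and Nop56 with ADAR1 p150 had the lowest. An unadjusted p under 0.05 was reached by 0 with 12-HETE and 1 with ADAR1 p150, and DESeq2 called 0 in both. Snu13, the fourth core protein, was under the minimum.

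Of the assembly factors, 5 of 12 were tested. Ruvbl2, a helicase-like ATPase of the R2TP complex that loads snoRNP proteins, had 252 and 254 counts in the vehicle libraries, 263 and 254 in 12-HETE, 287 and 286 in vector, and 751 and 661 in the ADAR1 p150 libraries. It rose with ADAR1 p150 by a log2 fold change of 1.01 (SE 0.10, adjusted p = 1.95e-09), while with 12-HETE it stood at -0.16 (SE 0.11, adjusted p = 0.315), and the difference between the 2 effects was -1.16 (SE 0.15, adjusted p = 1.57e-06 from edgeR). The value lay at the 2-fold limit, between 0.90 and 1.05 under the alternatives, and its adjusted p was 4.81e-07 or less in all of them. Its R2TP partner Ruvbl1 stood at -0.03 and 0.52 (adjusted p = 0.967 and 0.398), and Pih1d1 at 0.23 and -0.45 (adjusted p = 0.452 and 0.140). Gys1 and Lhb overlap exons of Ruvbl2 on the opposite strand by 310 and 138 bases.

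Among 10 nonsense-mediated decay factors 6 were tested. Smg5, an adaptor of the decay step, had 16 and 11 counts in the vehicle libraries, 20 and 16 in 12-HETE, 16 and 12 in vector, and 5 and 8 in the ADAR1 p150 libraries. It fell with ADAR1 p150 by 1.38 on the log2 scale (SE 0.48, adjusted p = 0.0308 from edgeR) and stood at 0.22 with 12-HETE (adjusted p = 0.729). The call was lost without the first vector library (-1.13, adjusted p = 0.212), without the first ADAR1 p150 library (-1.04, adjusted p = 0.198) and with DESeq2 (adjusted p = 0.183). Smg1, the kinase that acts on Upf1, passed with 12-HETE at -0.75 (SE 0.27, adjusted p = 0.0348) without reaching 2-fold, but not without the second vehicle library (-0.58, adjusted p = 0.252), without the second 12-HETE library (-0.50, adjusted p = 0.297) or with DESeq2 (adjusted p = 0.223). Upf1 did not pass, at -0.22 and -0.44 (adjusted p = 0.692 and 0.486). The list median was -0.43 with 12-HETE and -0.62 with ADAR1 p150.

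Of 8 regulators of TOP mRNAs, 4 were tested and 0 was called by edgeR or DESeq2 in either experiment, with 1 at an unadjusted p under 0.05 in each. Larp1, which binds the capped TOP start and holds such RNAs back from translation, had 214 and 263 counts in the vehicle libraries, 261 and 213 in 12-HETE, 176 and 169 in vector, and 151 and 139 in the ADAR1 p150 libraries. It passed the test with ADAR1 p150 at -0.54 (SE 0.14, adjusted p = 0.00341) and not with 12-HETE at -0.20 (SE 0.13, adjusted p = 0.245 from edgeR). Mtor and Rptor were under the minimum.

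**Figure D4:**
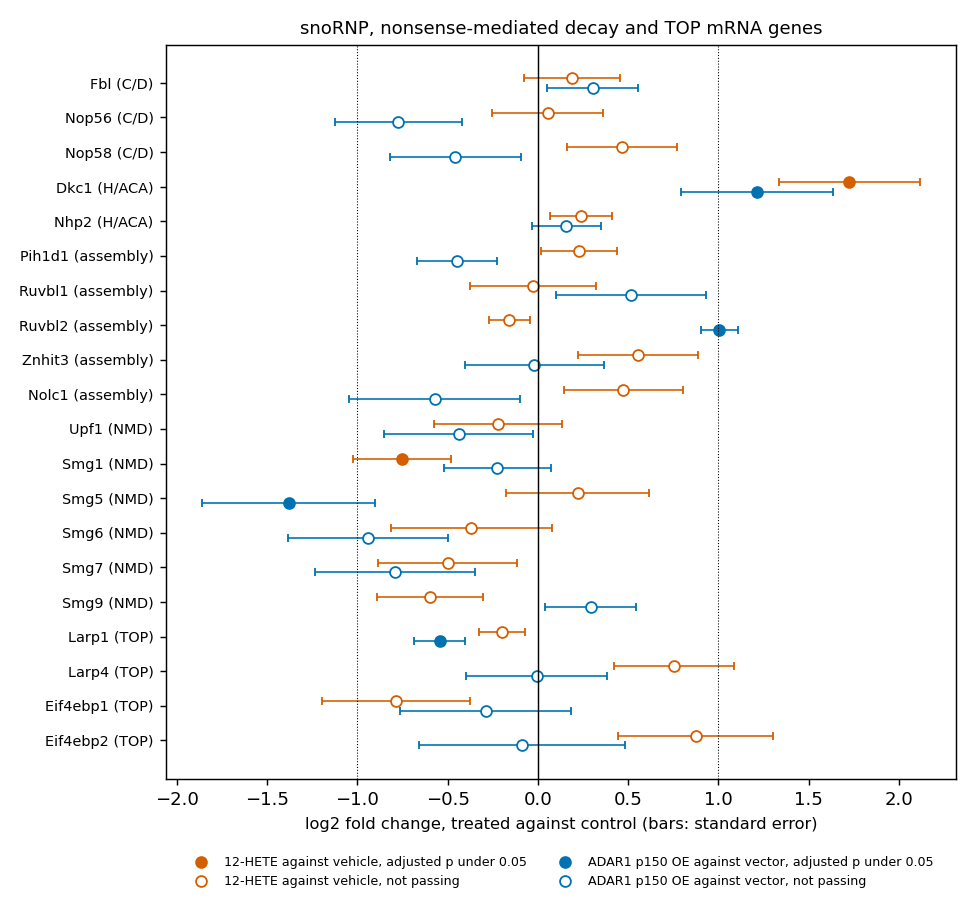
Log2 fold change (horizontal axis) of the 20 tested snoRNP, nonsense-mediated decay and TOP mRNA genes in both experiments, with bars for the standard error, filled points for an adjusted p under 0.05 and dotted lines at a 2-fold change. Dkc1 is filled on the right for both treatments, at 1.73 and 1.21, and Smg5 on the left for ADAR1 p150, at -1.38.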

How the data were processed

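The authors deposited raw counts per gene for 8 RNA-seq libraries. Per the study's methods, duplicate reads were removed with prinseq and the rest aligned to GRCm38 with STAR and counted with featureCounts, whose strand setting is not given in the sources used here. The methods name a directional library kit and the labels another kit. The floor of 3 counts covers counting error alone.

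The genes averaging 10 or more counts were fitted over all 8 libraries with TMM factors and the quasi-likelihood test of edgeR 4.0.16 (limma 3.58.1, R 4.3.3), with no replicate block, with Benjamini-Hochberg adjustment over all genes tested. Called genes had an adjusted p below 0.05 and changed at least 2-fold. The standard error was the size of the log2 fold change divided by the square root of F. Since this minimum left 0 snoRNAs, members with a mean from 2 to under 10 were reported from the same fit with a minimum of 2. Normalized CPM used the TMM factors, and sums over hosts used library totals.

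Members and lists were chosen with earlier results of these data known. Named are Gas5, Zfas1, every member called, the 6 hosts and 6 snoRNAs with the highest means as far as they are members, hosts and opposite-strand genes of named snoRNAs, list genes called, and low members whose treated libraries lay outside both controls. Others are named to complete their list. Alternatives were DESeq2 1.42.0, RLE factors, AY036118 left out, other minimums, a fit of 4 libraries, a replicate block, each library left out and adjusted p alone.

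RefSeq GRCm38.p6 gave positions and snoRNA genes (100% of symbols matched) and GENCODE M21 gave exons and snoRNA sequences. Replicates differed by more than sampling noise (mean chi-square per gene 1.39 to 1.71, without AY036118, Rn7s1 and Rn7s2). On simulated data of 6901 genes for 12-HETE against vehicle, 164 of 200 genes changed 4-fold were called, with 13 unchanged genes. The simulation gave every gene the same fixed spread, which was not estimated from these libraries. It therefore does not give the share of low members that would be called. A result is not reported here.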

Additional observations from a re-analysis of the deposited data

Results flagged for a closer look

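For Snhg20, the change with 12-HETE differed from that with ADAR1 p150 by a log2 fold change of 3.08 (SE 1.02, adjusted p = 0.0488) in the edgeR test of the difference between the effects. The 12-HETE libraries held 8 and 12 counts against 4 and 3 for vehicle, and the ADAR1 p150 libraries 3 and 1 against 4 and 7 for vector, so 2 of 2 libraries were higher with 12-HETE and 2 of 2 lower with ADAR1 p150. The result sat at the threshold. The adjusted p was 0.0507 with RLE factors and 0.0594 with no minimum count, and it ran from 0.0439 to 0.244 when each library was left out, with the highest value without the second vector library, where the difference was 2.71. The p stayed under 0.05 without the first 12-HETE library and was above it without any other library. DESeq2 gave no adjusted p for the difference between the effects of Snhg20. Snhg20 had a mean of 5.25 counts and was not among the genes that the study's own minimum kept.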

How the results depend on the processing

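With DESeq2, 0 of 3 hosts were called with ADAR1 p150 in place of 1. Over all genes it called 590 with 12-HETE, 441 with ADAR1 p150, 254 for the difference and 0 for vector against vehicle, where edgeR called 991, 884, 575 and 3. With at least 10 counts in every library edgeR called 481, 429, 436 and 0, and Snhg14 was the only host left, so that 0 hosts were called in either experiment and the host medians became 0.51 and 0.45. With adjusted p alone, 2 hosts passed in each. With a minimum mean of 2, 1 member was called for the difference between the effects in place of 0. Leaving out each library gave 1 called host with 12-HETE throughout and 0 to 1 with ADAR1 p150, host medians of -0.55 to 0.30 and -1.67 to -0.63, and snoRNA medians of -0.38 to 2.71 and 1.39 to 2.71, the second from Snord4a and from Snord96a, which met the minimum through the ADAR1 p150 libraries. Leaving out a library turned the sign of 6 uncalled values. With 12-HETE the ranges were -0.55 to 0.40 for Gas5, -1.14 to 0.34 for Snhg17, -0.63 to 4.73 for Snord4a and -0.13 to 0.70 for Snord96a. With ADAR1 p150 they were -2.18 to 1.04 for Snhg17 and -1.77 to 3.07 for Snhg8. The replicate block left 1 host called in each experiment, with medians of -0.11 and -1.06, and of the passed tests checked it ended 3: the Snhg20 difference (3.07, adjusted p = 0.0764), Dkc1 with ADAR1 p150 (adjusted p = 0.0507) and Smg1 with 12-HETE (adjusted p = 0.0622). Libraries with the same replicate number did not share their deviations from group means (r = -0.0774 and -0.112 over 6901 genes). This cannot tell whether they were cultured or processed together, which no label gives. A crossed replicate block, chosen after seeing the data, called 921 genes with ADAR1 p150 against 813 with the block as numbered and 884 without. The alternatives for snoRNAs, members under a mean of 10, list genes and opposite-strand genes were also chosen after seeing the data. No snoRNA had a value at a minimum mean of 10 or with at least 10 counts in every library. Depth limits the low members most: their standard errors in the 2 treatment comparisons ran from 0.63 to 1.28.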
